A study of Rattus norvegicus with 19 samples.

Results

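Among 9 plasma small RNA libraries from naive rats and rats with mild traumatic brain injury (mTBI), 4 held more than 11 mature miRNA molecules for each spike-in molecule, and 5 held fewer. These 4 libraries, of the 19 in the whole series, are described here and called high-ratio libraries (mTBI 2, mTBI 5, naive 1 and naive 3); the other 5 are called low-ratio libraries (mTBI 1, mTBI 3, mTBI 4, naive 2 and naive 4). Values listed per library keep these orders throughout. Molecules were counted by unique molecular identifiers (UMIs), short random tags that let PCR copies of one molecule be counted once, and spike-ins are synthetic RNAs that no rat tissue makes. The step at which they were added is not given in the sources used here, and what the ratio and each level per spike-in UMI measure depends on it. The libraries were chosen by this ratio, so every miRNA difference between the high-ratio and low-ratio libraries is a description without a test.

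All rats were adult male Sprague–Dawley rats, and plasma was separated from tail-vein blood in EDTA tubes taken under isoflurane 2 days after the injury, the surgery or the anesthesia. The 5 mTBI rats had a craniectomy over the left hemisphere and a mild lateral fluid-percussion impact, the 5 rats with severe TBI (sTBI) the same with a stronger impact, and the 5 sham-operated rats the surgery without an impact, and the 4 naive rats only isoflurane. A single library was made per rat from several pooled plasma aliquots, so the libraries are separate animals. TBI and sham rats also received lidocaine at the incision and buprenorphine after surgery, which naive rats did not.

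miRNAs are short RNAs that lead Argonaute proteins to messenger RNAs, mostly through bases 2 to 8 of the miRNA, the seed. Plasma miRNAs leave blood cells, platelets, vessel walls and solid organs bound to proteins or inside vesicles, and some are so restricted to one tissue that they are read as markers of it: miR-122 of hepatocytes, miR-143 and miR-145 of smooth muscle and other mesenchymal cells, miR-486 and miR-451 of red cells, miR-150 and miR-342 of lymphocytes. Plasma also holds fragments of tRNAs, chiefly of Gly and Glu tRNAs.

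The mature sequences below belong to a pair of seed families. They are from RefSeq (build GRCr8), with the seed in capitals. Of the 15 families with at least 3 tested members, they had the highest and the lowest median difference. The first family shares its seed with miR-16-5p (chromosome 2, positions 155555343 to 155555364) and includes miR-497-5p (chromosome 10, 55450172 to 55450193) and miR-195-5p (chromosome 10, 55450509 to 55450529), which lie side by side.
miR-497-5p: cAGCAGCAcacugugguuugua
miR-195-5p: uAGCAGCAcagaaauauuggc
miR-322-5p: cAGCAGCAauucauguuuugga
miR-15b-5p: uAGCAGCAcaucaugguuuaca
miR-16-5p: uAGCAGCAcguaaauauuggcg

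The other family shares its seed with miR-92a-3p (chromosome 15, 98588602 to 98588622) and includes miR-92b-3p (chromosome 2, 176931663 to 176931684).
miR-92b-3p: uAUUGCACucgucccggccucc
miR-92a-3p: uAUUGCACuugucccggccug
miR-25-3p: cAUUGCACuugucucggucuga
miR-363-3p: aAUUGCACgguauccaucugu
miR-32-5p: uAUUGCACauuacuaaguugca

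A further pair of sequences is shown because their miRNAs were among the most shifted or the most abundant ones described below, the lymphocyte miRNA miR-342-3p (chromosome 6, 133329715 to 133329737) and the broadly expressed let-7c-5p (chromosome 7, 118683636 to 118683657).
miR-342-3p: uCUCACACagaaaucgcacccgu
let-7c-5p: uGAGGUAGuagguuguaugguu

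The ratio was 16.8, 12.6, 12.7 and 15.0 miRNA UMIs per spike-in UMI in the high-ratio libraries, against 7.61, 9.13, 7.20, 6.64 and 7.24 in the low-ratio libraries. The library just inside the limit of 11 was mTBI 5 at 12.6, and the one just outside was mTBI 3 at 9.13. None of the other 10 libraries reached the limit: sTBI libraries lay between 5.61 and 7.38, and sham libraries between 5.53 and 9.37. Both terms of the ratio differed, with 4.09 to 5.87 M (1e+06) miRNA UMIs in high-ratio libraries against 2.89 to 4.45 M in low-ratio libraries, and with 0.251 to 0.464 M spike-in UMIs in high-ratio libraries against 0.400 to 0.584 M in low-ratio libraries. The same 4 libraries ranked highest by 32 of the 43 spike-ins with at least 100 UMIs in each of the 9 libraries, each taken alone as the divisor. In bulk plasma RNA, the number of cells that release a miRNA and the amount released per cell cannot be told apart as the source of a level. Counted in reads instead of UMIs, the ratio was 12.6 to 17.0 in high-ratio libraries and 6.45 to 8.91 in low-ratio libraries.

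**Figure D1:**
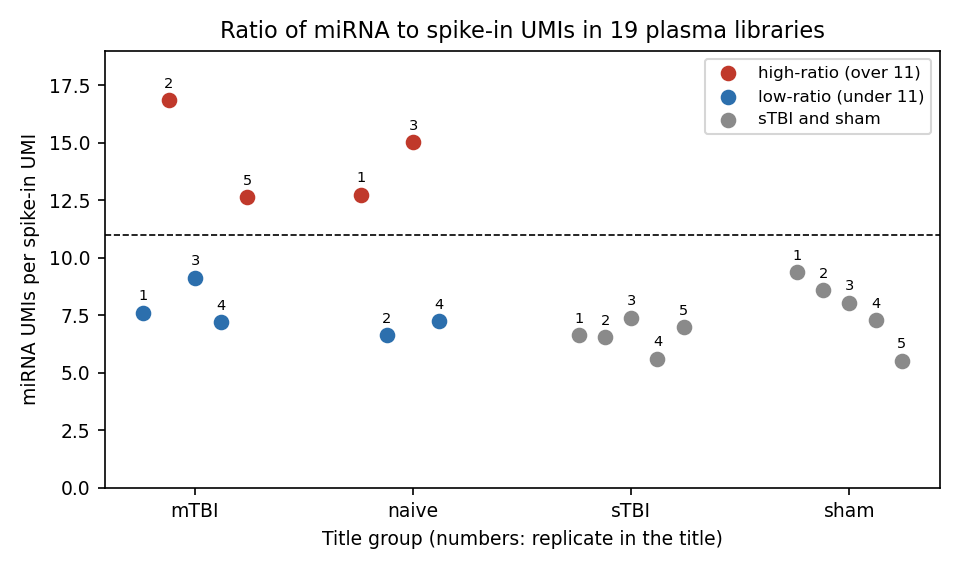
Mature miRNA UMIs per spike-in UMI (y axis) in each of the 19 libraries, by title group (x axis), with the replicate number above each point and the limit of 11 as a dashed line. The 4 red high-ratio libraries lie between 12.6 and 16.8, the 5 blue low-ratio libraries between 6.64 and 9.13, and the grey sTBI and sham libraries between 5.53 and 9.37.

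Scales place the miRNAs differently, and they are kept apart here. CPM are UMIs of a miRNA scaled to 1e+06 miRNA UMIs of its library, so they show the make-up of the miRNA pool. The median miRNA of the 711 tested was lower in high-ratio libraries by −0.61 on the log2 scale with total counts, −0.13 after TMM scaling, which takes most miRNAs as unchanged, and higher by 0.34 per spike-in UMI. Fold changes below are log2 values of high-ratio over low-ratio libraries after TMM scaling with the title group in the fit, with their standard error (SE), and a direction that turns on another scale is named.

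In CPM, 62 of the 711 miRNAs (8.72%) were higher in every high-ratio library than in any low-ratio library, and 223 (31.4%) were lower. On TMM-scaled CPM these counts were 123 and 56. After TMM scaling, 66 miRNAs (9.28%) were over 2-fold higher and 44 (6.19%) over 2-fold lower, and with total counts 35 and 158. Per spike-in UMI, 178 (25%) were higher without overlap and 2 (0.281%) lower, miR-1306-5p and miR-187-5p. Among the 171 miRNAs with a mean level of at least 100 CPM, 41 were higher and 28 lower without overlap in CPM. A level per spike-in UMI is the share of the pool multiplied by the ratio that chose the libraries, so the 41 had to be higher per spike-in UMI too, and nothing is read from that. Of the 28, 27 overlapped on that scale. Differences per spike-in UMI given below are likewise raised by the rule, so a sign above 0 on that scale is not a separate result.

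Among miRNAs with at least 100 CPM, the largest fitted difference was that of miR-143-3p. miR-143 and miR-145 are neighbouring miRNAs of smooth muscle and fibroblasts. miR-143-3p made up 54333, 68098, 100684 and 71504 CPM in the high-ratio libraries, against 20077, 7233, 7639, 9870 and 11730 CPM in the low-ratio libraries. Its lowest high-ratio library was above its highest low-ratio library, mTBI 1, and the log2 fold change was 3.16 (SE 0.33). miR-145-5p stood at 8317, 9408, 10232 and 6868 CPM, against 2978, 1542, 1098, 2391 and 2485 CPM in low-ratio libraries (log2 fold change 2.53, SE 0.24). The passenger strands followed, with log2 fold changes of 2.83 (SE 0.26) for miR-143-5p and 2.97 (SE 0.25) for miR-145-3p, again without overlap. Per spike-in UMI, miR-143-3p was at 0.861 to 1.28 in high-ratio libraries and 0.0550 to 0.153 in low-ratio libraries. It is one of those that had to be higher on that scale. In the 10 sham and sTBI libraries miR-143-3p ranged between 4392 and 30504 CPM, below all high-ratio libraries.

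miR-335, which lies in an intron of the imprinted gene Mest, was at 818, 1292, 1500 and 1391 CPM in high-ratio libraries, against 344, 138, 103, 168 and 300 CPM in low-ratio libraries (log2 fold change 3.01, SE 0.37). The sets did not overlap. miR-497-5p was at 385, 406, 584 and 469 CPM in high-ratio libraries, against 116, 86.8, 79.7, 119 and 68.1 CPM in low-ratio libraries (2.75, SE 0.19). Its lowest level, in naive 4, came from 197 UMIs with an exact (Clopper-Pearson) 95% interval of 58.9 to 78.3 CPM, so counting error was small beside the gap. Such intervals cover counting error only.

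Members of the seed family of miR-497-5p had unlike fitted differences. miR-195-5p, its cluster partner, was at 1240, 1341, 1626 and 1076 CPM in high-ratio libraries, against 551, 436, 474, 430 and 418 CPM in low-ratio libraries (log2 fold change 2.00, SE 0.16). miR-322-5p, an X-linked member, had a log2 fold change of 1.69 (SE 0.17) and no overlap either. miR-15b-5p overlapped, with a log2 fold change of −0.10 (SE 0.20). miR-16-5p, the most abundant miRNA of these libraries and plentiful in red cells, was at 138071, 156336, 137564 and 181225 CPM in high-ratio libraries, against 251873, 238791, 247061, 216465 and 242118 CPM in low-ratio libraries. It was lower in CPM without overlap, had a log2 fold change of −0.16 (SE 0.14) after TMM scaling and was higher by 0.30 on the log2 scale per spike-in UMI. Of the 5 members that share the seed printed above, 3 were thus higher and 1 was lower in CPM without overlap (8.72% and 31.4% over all miRNAs).

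miR-122-5p, the dominant miRNA of hepatocytes, was the other abundant miRNA that was higher in the high-ratio libraries. It was at 138736, 127517, 83410 and 127081 CPM, against 43390, 27442, 21949, 18620 and 47862 CPM in low-ratio libraries. The sets did not overlap, and the log2 fold change was 2.38 (SE 0.33). The 10 sham and sTBI libraries reached between 25683 and 141403 CPM, so levels as high as those of the high-ratio libraries also occurred at a low ratio. miR-192-5p, made in liver, gut and kidney, was at 9152, 9303, 9077 and 11959 CPM in high-ratio libraries, against 7690, 6201, 4691, 7936 and 7785 CPM in low-ratio libraries (0.99, SE 0.16).

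Among the miRNAs that took a smaller share, miR-486, a red cell miRNA, was the most abundant after miR-16-5p. It was at 27484, 36025, 27390 and 38131 CPM in high-ratio libraries, against 85521, 103475, 90958, 83230 and 108847 CPM in low-ratio libraries (log2 fold change −1.07, SE 0.17). Per spike-in UMI the sets overlapped, at 0.349 to 0.573 in high-ratio libraries and 0.552 to 0.945 in low-ratio libraries. miR-451-5p, the other red cell marker, overlapped in CPM (−0.03, SE 0.21). Its ratio to miR-23a-3p in CPM was 0.0934, 0.0900, 0.0714 and 0.151 in high-ratio libraries, against 0.265, 0.217, 0.192, 0.135 and 0.162 in low-ratio libraries. These ratios overlapped only through naive 3 and naive 2. The study judged hemolysis by PCR of this pair, which is not the same measure as a ratio of CPM. By that PCR it called none of the pooled plasma samples hemolyzed, and by absorbance it called some. The part of hemolysis in the differences was not tested.

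The lymphocyte miRNAs miR-150 and miR-342-3p were also among those with a smaller share. miR-150-5p was at 19725, 16243, 16860 and 13936 CPM in high-ratio libraries, against 26604, 51523, 37090, 54570 and 42975 CPM in low-ratio libraries (log2 fold change −0.88, SE 0.19). Its passenger strand miR-150-3p had −0.86 (SE 0.17). miR-342-3p was at 6721, 7006, 7399 and 5717 CPM in high-ratio libraries, against 12495, 19171, 14514, 20172 and 18757 CPM in low-ratio libraries (−0.88, SE 0.16). None of these sets overlapped in CPM. Per spike-in UMI, miR-150-5p overlapped, at 0.205 to 0.332 in high-ratio and 0.203 to 0.471 in low-ratio libraries.

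miR-92b-3p was at 330, 384, 487 and 381 CPM in high-ratio libraries, against 814, 1062, 906, 1169 and 1410 CPM in low-ratio libraries (log2 fold change −0.99, SE 0.17). In its seed family miR-92a-3p (−0.75, SE 0.14) and miR-25-3p (−0.52, SE 0.14) were also lower without overlap in CPM, while miR-363-3p (0.09, SE 0.17) and miR-32-5p (0.21, SE 0.23) overlapped. A sparser miRNA of the lower group was miR-1306-5p, which lies in the gene of the microprocessor subunit Dgcr8. It was at 47.6, 57.4, 52.2 and 51.3 CPM in high-ratio libraries, against 136, 137, 133, 168 and 191 CPM in low-ratio libraries (−1.08, SE 0.16), and was lower without overlap per spike-in UMI as well.

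**Figure D2:**
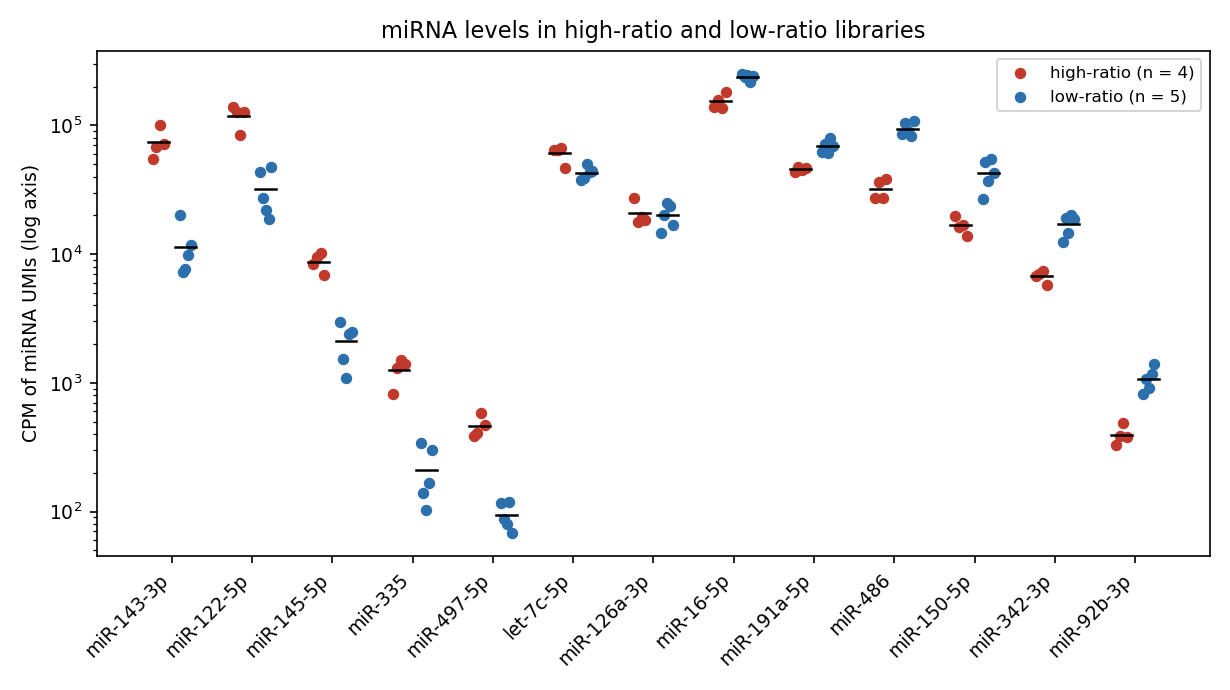
CPM of 13 named miRNAs on a log axis in high-ratio libraries (red, n = 4, left of each pair) and low-ratio libraries (blue, n = 5), 1 point per library, with the mean of each set as a bar. miR-143-3p, miR-122-5p, miR-145-5p, miR-335 and miR-497-5p lie higher in all red points, miR-126a-3p and let-7c-5p overlap, and miR-16-5p, miR-191a-5p, miR-486, miR-150-5p, miR-342-3p and miR-92b-3p lie lower in all red points.

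Lists of miRNAs by the tissue or cell type in which they are abundant were chosen with earlier results of these data known. They hold miRNAs named above, so they are not separate support for those differences. Medians of the lists are set beside the −0.13 of all 711 miRNAs. Counts without overlap in CPM are set beside the 8.72% higher and 31.4% lower of all 711, and counts over 2-fold higher beside 9.28%. Their order is what the lists show, since the sign depends on the scale: per spike-in UMI all 11 list medians were above 0, at 0.13 to 1.53, and with total counts 7 of the 11 were below 0, at −0.81 to −0.43. The endothelial and stromal list had the highest median log2 fold change, 1.07 over 16 miRNAs, of which 15 were above 0, 9 over 2-fold higher and 8 higher without overlap in CPM. miR-143 and miR-145 were among these 8, and the endothelial miR-126a-3p overlapped (0.52, SE 0.17). The list took 12.8 to 17.4% of miRNA UMIs in high-ratio libraries and 5.50 to 6.67% in low-ratio libraries. Most of this gap came from miR-143-3p alone, at 54333 to 100684 CPM in high-ratio and 7233 to 20077 CPM in low-ratio libraries. Per spike-in UMI the list summed to 1.65 to 2.22 in high-ratio libraries, against 0.402 to 0.502 in low-ratio libraries, a gap that the ratio itself widens.

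The liver list followed with a median of 0.68 over 15 miRNAs, 14 above 0, 6 higher and 2 lower without overlap (8.72% and 31.4% over all miRNAs). It took 10.1 to 15.5% of miRNA UMIs in high-ratio libraries and 3.34 to 6.25% in low-ratio libraries, most of it miR-122-5p. The let-7 list had a median of 0.68, with all 9 above 0 but 1 higher without overlap (8.72% over all miRNAs), let-7e-5p. let-7c-5p, its most abundant member, was at 64883, 64535, 67236 and 46360 CPM in high-ratio libraries, against 37726, 38839, 49926, 43136 and 43926 CPM in low-ratio libraries (0.98, SE 0.14). let-7b-5p had a similar log2 fold change of 0.93 (SE 0.13).

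The platelet list was mixed. Its median was 0.66, with 5 of 13 higher and 3 lower without overlap (8.72% and 31.4% over all miRNAs). Those higher included miR-199a-3p (1.92), miR-199a-5p (2.21) and miR-130a-3p (2.06), which mesenchymal cells also express. miR-191a-5p, the most abundant platelet miRNA, was at 43065, 47735, 44645 and 46968 CPM in high-ratio libraries, against 62496, 71014, 61443, 79879 and 69544 CPM in low-ratio libraries, with a log2 fold change of −0.12 (SE 0.12) after TMM scaling and a difference of 0.33 per spike-in UMI. miR-140-3p, the next in abundance, overlapped (0.09, SE 0.17).

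The erythrocyte list had a median of −0.08, with 4 of 13 lower and none higher without overlap, a share of lower miRNAs near the 31.4% of all 711. It took 18.0 to 23.9% of miRNA UMIs in high-ratio libraries, against 33.5 to 38.4% in low-ratio libraries. Per spike-in UMI its sum was 2.29 to 3.59 in high-ratio libraries and 2.22 to 3.47 in low-ratio libraries, which overlap almost fully. The leukocyte list had a median of −0.08, with 6 of 13 above 0 (highest 0.68). Without overlap 4 of 13 were lower, again near the 31.4% of all miRNAs, and miR-223-3p of myeloid cells overlapped (−0.19, SE 0.13). The share of the list was 6.55 to 8.41% in high-ratio libraries and 11.4 to 15.0% in low-ratio libraries. Its sum per spike-in UMI overlapped, at 0.847 to 1.42 in high-ratio and 0.856 to 1.32 in low-ratio libraries.

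The remaining lists lay near or below the median of all miRNAs. Their counts without overlap stand beside 8.72% higher and 31.4% lower over all 711 miRNAs. The miR-17 to miR-92 clusters, oncogenic clusters active in dividing cells, had a median of 0.05 with 5 of 13 lower without overlap, and miR-93-5p (0.08, SE 0.15) and miR-19b-3p (0.36, SE 0.17) overlapped. The epithelial and endocrine list had a median of −0.02, with 1 of 22 higher and 5 lower, and miR-215 and miR-203a-3p overlapped. The skeletal and cardiac muscle list had a median of −0.25 with 1 of 13 higher, miR-499-5p, and its abundant members miR-133a-3p/133b-3p (−0.25, SE 0.39) and miR-206-3p (−0.30, SE 0.32) overlapped widely.

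Brain-enriched miRNAs together took a smaller share of the pool in high-ratio libraries, and most of that share was miR-128-3p. Their median was −0.24 over 29 miRNAs, with 1 higher and 12 lower without overlap (8.72% and 31.4% over all miRNAs). They took 0.329 to 0.481% of miRNA UMIs in high-ratio libraries against 0.663 to 0.775% in low-ratio libraries. Their sum per spike-in UMI overlapped, at 0.0419 to 0.0722 in high-ratio and 0.0497 to 0.0605 in low-ratio libraries. miR-128-3p, the most abundant of them and also present in blood cells, was at 3080, 3025, 2845 and 4396 CPM in high-ratio libraries, against 6057, 6125, 6235, 7217 and 6734 CPM in low-ratio libraries (−0.50, SE 0.16). miR-138-5p had 0.63 (SE 0.17) and overlapped. The imprinted Dlk1-Dio3 cluster, rich in neuronal miRNAs, had the lowest median, −0.34 over 82 miRNAs, with 33 lower and none higher without overlap (31.4% and 8.72% over all miRNAs), but its median per spike-in UMI was higher by 0.13. miR-379-3p (0.39, SE 0.24) and miR-411-5p (−0.04, SE 0.18), its most abundant members, overlapped. The cluster was sparse, with 0.109 to 0.132% of miRNA UMIs in high-ratio and 0.151 to 0.193% in low-ratio libraries. Sparser miRNAs had lower fitted differences over all 711 (rho 0.47 with mean CPM), and the comparison with all miRNAs is not matched for abundance. The small fitted differences given for overlapping miRNAs carry no direction, and many turn on another scale, such as miR-451-5p, miR-15b-5p and miR-223-3p, which were above 0 per spike-in UMI.

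**Figure D3:**
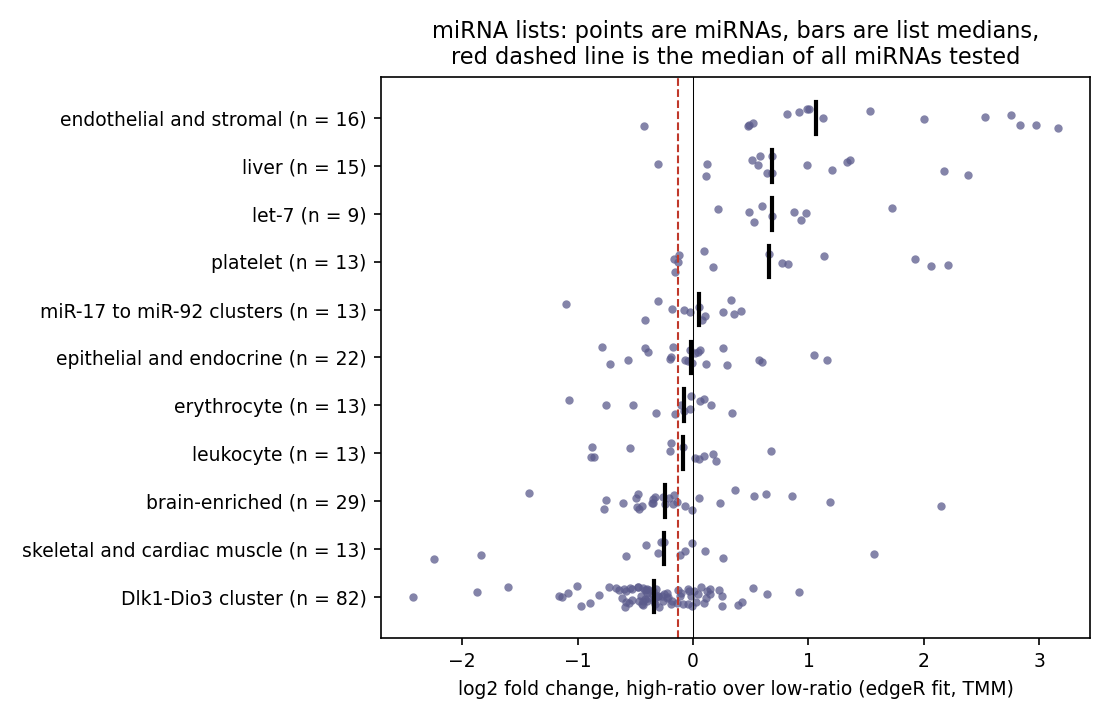
Log2 fold change of high-ratio over low-ratio libraries (x axis, edgeR fit with TMM) for each tested miRNA of 11 lists (rows), with list medians as black bars and the median of all 711 miRNAs (−0.13) as a red dashed line. The endothelial and stromal list has the highest median (1.07) and the Dlk1-Dio3 cluster the lowest (−0.34).

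Most differences had the same sign in both title groups. Across the 171 miRNAs with at least 100 CPM, the mTBI difference (mTBI 2 and 5 against mTBI 1, 3 and 4) and the naive difference (naive 1 and 3 against naive 2 and 4) had a Spearman rho of 0.77 and the same sign for 133. The points share libraries, so this is a description. The miR-143-3p log2 fold change was 2.95 within mTBI and 3.39 within naive, that of miR-122-5p 2.64 within mTBI and 2.07 within naive, and that of miR-486 −1.04 within mTBI and −1.13 within naive. miR-203a-3p of skin was an exception, lower in the high-ratio mTBI libraries (−1.37) and higher in the high-ratio naive libraries (1.85) on the log2 CPM scale.

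**Figure D4:**
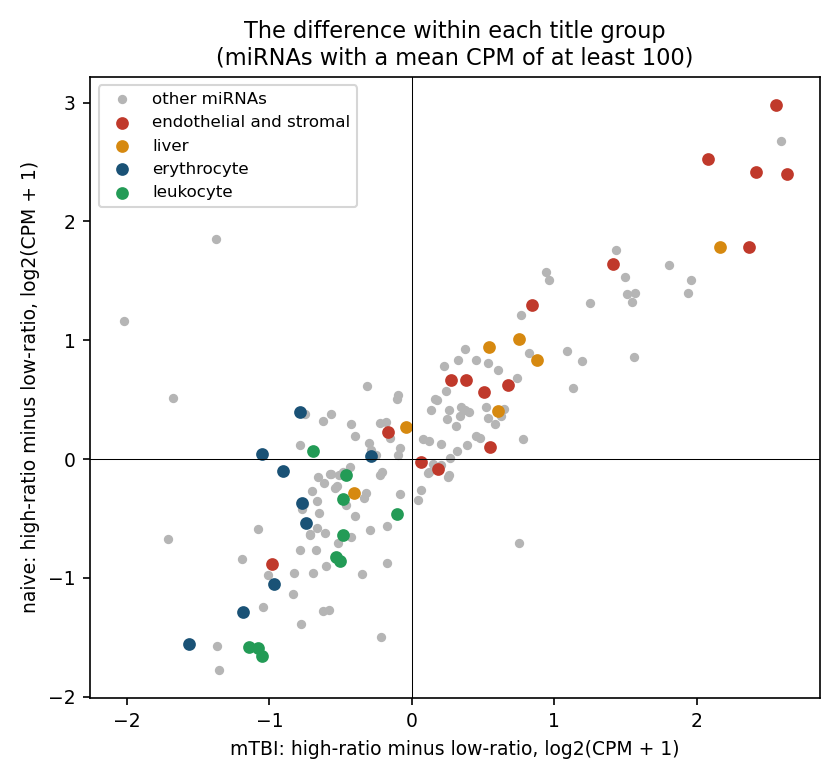
Difference of mean log2(CPM + 1) between high-ratio and low-ratio libraries within mTBI (x axis) and within naive (y axis) for the 171 miRNAs with a mean of at least 100 CPM, coloured by list. Endothelial and stromal miRNAs (red) and liver miRNAs (orange) lie mostly at the upper right, and erythrocyte (dark blue) and leukocyte (green) miRNAs mostly at the left or lower left.

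Sequence features not used by the rule went little with the difference. Of the 711 tested miRNAs, 633 matched a RefSeq sequence by name. Over them, the Spearman rho of the log2 fold change was −0.21 with GC content and 0.03 with length. Abundance went with it over all 711 (rho 0.47), but not over the 171 miRNAs with at least 100 CPM (0.05). Among the matched miRNAs, the median GC content was 45.5% in the 57 that were higher without overlap and 52.4% in the 198 that were lower. In the 378 that overlapped it was 45.5% as well, so only the lower miRNAs stood apart. Both arms of a hairpin lay on the same side of 0 in 152 of 241 hairpins (63.1%). Unrelated arms would often agree too, since 282 of the 711 miRNAs were above 0 and 429 below.

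The 10 sham and sTBI libraries were not used by the rule and allowed a test of whether the same miRNAs follow the ratio, although its range there was narrow. The slope on the log2 ratio, with the title group in the fit, was above 0 for 338 of 691 miRNAs (48.9%). By edgeR's quasi-likelihood test with Benjamini-Hochberg adjustment, no miRNA had a positive slope past the threshold (0%) and 5 had a negative one (0.724%), while the unadjusted p was under 0.05 for 106. DESeq2 passed 15 positive and 18 negative slopes. Without sTBI 1, 9 positive and 7 negative slopes passed, and without sTBI 5, 2 and 11. Without sTBI 3, sTBI 4, sham 1 or sham 2, 2 negative slopes passed. The 5 were miR-1199-5p, miR-6328, miR-615, miR-192-3p and miR-149-3p. Without sham 5, the library with the lowest ratio, none of the 5 passed, although all slopes stayed negative, and that of miR-192-3p was −1.44 against −1.47 with it. miR-615, miR-192-3p and miR-149-3p also failed to pass without sTBI 3, sTBI 4, sham 1 or sham 2.

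miR-1199-5p, with the smallest p, was at 40.0, 30.1, 28.7, 48.2 and 25.98 CPM in sTBI 1 to 5, and at 25.9, 29.8, 30.6, 42.6 and 91.7 CPM in sham 1 to 5. Its level in sham 5 was the highest. Its slope was −2.12 (SE 0.27) in log2 units per doubling of the ratio, with an edgeR adjusted p of 0.00138 over all miRNAs. Without sham 5 the slope was −1.58, with an edgeR adjusted p of 0.814. miR-6328, with a slope of −2.33 (SE 0.34), had the same shape, with 154 CPM in sham 5 and 37.9 to 72.4 CPM in the other 9 libraries. miR-30b-5p had the second smallest p among positive slopes (1.62, SE 0.40, edgeR adjusted p = 0.0683) and the smallest for a miRNA at 100 CPM or more, with 232 CPM in sham 5 and 422 to 556 CPM in the others.

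The miRNAs of the high-ratio libraries did not all follow the ratio in these 10 libraries. Of the 41 that were higher without overlap at 100 CPM or more, 36 had a slope above 0, against 120 of the 171 miRNAs of that abundance. Of the 28 that were lower, 16 had a slope below 0, against 51 of 171. In the endothelial and stromal list 15 of 16 slopes were above 0 (median 0.69), in the let-7 list all 9 (median 1.08), and in the platelet list 10 of 13 (median 0.44). miR-143-3p had a slope of 1.81 that did not pass (edgeR adjusted p = 0.576). The liver list stood the other way, with 3 of 15 above 0 (median −0.54), and miR-122-5p had a slope of −1.57 (edgeR adjusted p = 0.464). The erythrocyte list, lower in share in the high-ratio libraries, had 8 of 13 slopes above 0 (median 0.80).

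The tRNA table is separate from the ratio and was tested. Of 333 tRNA features tested of 386, 48 (14.4%) were higher and 16 (4.8%) lower in the high-ratio libraries by edgeR's quasi-likelihood test with adjusted p under 0.05. With total counts in place of TMM the counts were 10 higher and 1 lower. TMM factors in this table ran from 0.628 to 2.77, the largest in mTBI 1, whose tRNA total of 1.39 M UMIs was the lowest, against 1.57 to 6.25 M in the others. Leaving out mTBI 3 or naive 2 left 30 or 31 higher, and leaving out mTBI 2, mTBI 4, naive 2, naive 3 or naive 4 left 5, 7, 4, 8 or 10 lower. tRNA genes are present in many near-identical copies, so reads of 1 fragment may be divided among features and the count of features is not a count of separate fragments.

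By isotype, the calls were uneven. Leu features gave 14 of 27 tested higher and none lower, Glu 9 of 20, Met 7 of 12, Lys 6 of 24 with 1 lower, and Phe 4 of 8. Gly features gave 1 higher and 4 lower of 29, and Val 3 lower of 14. Gly and Glu together made nearly all tRNA UMIs. The Glu share was 27.3, 27.2, 31.4 and 25.9% of tRNA UMIs in high-ratio libraries, against 21.7, 15.5, 15.1, 17.2 and 23.6% in low-ratio libraries. The Gly share was 69.7, 68.2, 64.6 and 71.2% in high-ratio libraries, against 72.1, 81.5, 80.4, 79.6 and 73.3% in low-ratio libraries. Both sets of shares were apart without overlap, Glu higher and Gly lower. As Gly and Glu made nearly all tRNA UMIs, a higher share of one nearly fixes a lower share of the other. The His share was also apart, 0.413 to 0.873% in high-ratio libraries against 0.927 to 1.63% in low-ratio libraries. The shares of Leu, Lys, Met and Phe, the other isotypes with many features called higher, overlapped. Leu took 0.792 to 1.97% in high-ratio and 0.346 to 1.75% in low-ratio libraries, and Lys 0.322 to 0.421% and 0.131 to 0.610%. In all of them the highest low-ratio share was that of mTBI 1, the library with the largest TMM factor. None of these shares was tested.

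The feature with the largest increase was a Lys tRNA (Chr17.trna1683-LysTTT). In CPM of the tRNA table after TMM scaling it was at 3370, 1534, 1142 and 3040 in high-ratio libraries, against 620, 274, 232, 546 and 610 in low-ratio libraries. The sets did not overlap (log2 fold change 2.33, SE 0.41, edgeR adjusted p = 0.00177). A Met tRNA (Chr17.trna1583-MetCAT) was at 180, 114, 166 and 159 in high-ratio libraries, against 42.7, 25.4, 21.6, 45.5 and 30.5 in low-ratio libraries (2.20, SE 0.26, edgeR adjusted p = 0.000235). Both passed with total counts too. An Ala tRNA (Chr12.trna2135-AlaTGC, 2.24, SE 0.37), a Thr tRNA (Chr10.trna2465-ThrAGT, 2.03, SE 0.27), a Phe tRNA (Chr12.trna2133-PheGAA, 2.02, SE 0.41) and another Met tRNA (Chr11.trna1954-MetCAT, 1.81, SE 0.37) also rose without overlap, and none of these 4 passed with total counts.

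The features that fell were mostly sparse. Chr10.trna687-GlyCCC was the most abundant, at 46.6, 125, 84.4 and 58.7 TMM-scaled CPM in high-ratio libraries, against 180, 158, 211, 214 and 198 in low-ratio libraries (log2 fold change −1.28, SE 0.29, edgeR adjusted p = 0.00684). Chr17.trna3849-SerAGA had the largest decrease (−1.85, SE 0.59, edgeR adjusted p = 0.0420) from 2 to 25 UMIs in high-ratio libraries and 12 to 68 in low-ratio libraries, and its sets overlapped. Chr17.trna1648-SerTGA (−1.08, SE 0.27), Chr19.trna3946-HisGTG (−1.11, SE 0.34) and the features ENSRNOT00000044639 (−1.34, SE 0.28) and ENSRNOT00000051129 (−1.26, SE 0.28) also fell, of which the His feature overlapped. None of the 6 passed with total counts. A test of whether the difference itself differed between mTBI and naive called no tRNA feature (edgeR, 26 with an unadjusted p under 0.05).

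Piwi-interacting RNAs (piRNAs) guide silencing of transposons in the germline, and plasma reads mapped to them can come from other small RNAs with the same sequence. Of 81 piRNA features tested of 104, 6 (7.41%) were higher and 1 (1.23%) lower in high-ratio libraries by the same edgeR test. rno_piR_000194 was the most abundant of them, at 147484, 25652, 46706 and 136804 TMM-scaled CPM of the piRNA rows in high-ratio libraries, against 13540, 12974, 5756, 25741 and 14761 in low-ratio libraries. Its log2 fold change was 2.64 (SE 0.54, edgeR adjusted p = 0.00242), mTBI 2 and naive 3 held most of it, and mTBI 5 and naive 2 overlapped. It was the single piRNA that passed with total counts.

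rno_piR_008668 was at 950, 681, 1328 and 857 TMM-scaled CPM in high-ratio libraries, against 316, 328, 145, 161 and 216 in low-ratio libraries (log2 fold change 2.02, SE 0.32, edgeR adjusted p = 0.000427). rno_piR_001198 (1.54, SE 0.26), rno_piR_011541 (1.43, SE 0.24), rno_piR_019160 (1.39, SE 0.29) and rno_piR_005596 (1.22, SE 0.32) also rose without overlap. rno_piR_005700 was at 1663, 1327, 2111 and 1428 in high-ratio libraries, against 2149, 6841, 11814, 5384 and 4844 in low-ratio libraries (−1.90, SE 0.47, edgeR adjusted p = 0.0400). Its call was lost when mTBI 3, mTBI 5, naive 1, naive 3 or naive 4 was left out. A test of the difference between mTBI and naive called none of the 81 (edgeR, 4 with an unadjusted p under 0.05).

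**Figure D5:**
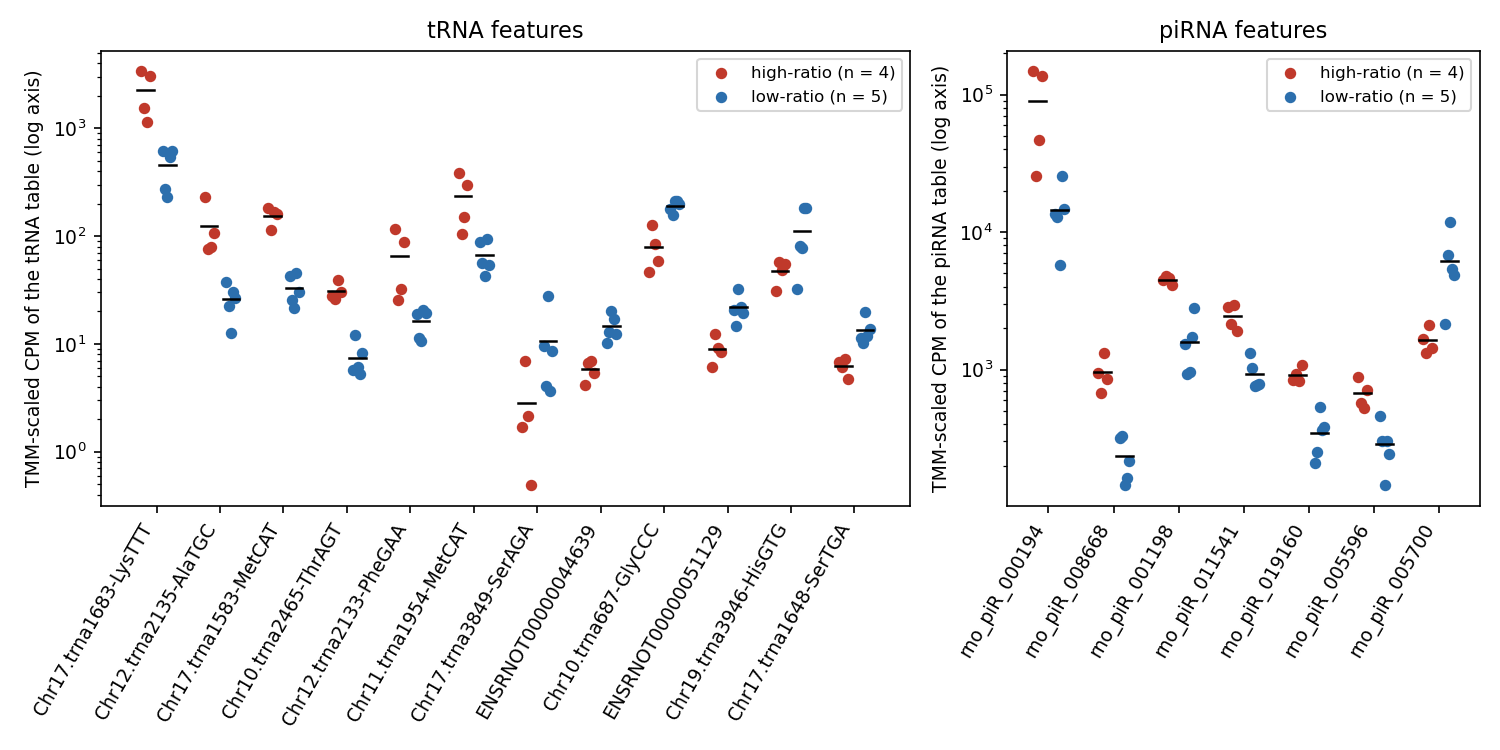
TMM-scaled CPM (log axes) of the 12 named tRNA features (left panel) and the 7 named piRNA features (right panel) in high-ratio libraries (red, n = 4, left of each pair) and low-ratio libraries (blue, n = 5), 1 point per library, with the mean of each set as a bar. Features that rose stand at the left of each panel; Chr17.trna3849-SerAGA, Chr19.trna3946-HisGTG and rno_piR_000194 are those whose sets overlap.

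A further 8 measures of a library, computed without miRNA or spike-in UMIs, were compared by a two-sided exact permutation test within title groups. There were 60 arrangements (smallest possible p 0.0167), and none passed after adjustment over the 8. With that smallest p, a measure that differed alone could not have passed. Total reads, also the divisor of the dropped reads, include miRNA reads. Spike-in reads were not subtracted from the read classes, so not every measure is free of the terms of the ratio. The one whose sets did not overlap was the number of tRNA reads per tRNA UMI, at 1.22, 1.24, 1.196 and 1.24 in high-ratio libraries, against 1.32, 1.37, 1.53, 1.40 and 1.42 in low-ratio libraries (difference −0.19, exact p = 0.0333, adjusted p = 0.244). The same held, as a description, for miRNA reads per miRNA UMI, 1.19 to 1.51 in high-ratio libraries and 1.68 to 2.24 in low-ratio libraries. High-ratio libraries thus had fewer reads per molecule, and the part of this in the other differences was not tested.

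Total reads were 17.6 to 20.1 M in high-ratio libraries, against 19.3 to 21.5 M in low-ratio libraries (exact p = 0.0833). Reads dropped before mapping made up 10.9 to 18.4% of total reads in high-ratio libraries and 16.8 to 30.1% in low-ratio libraries (exact p = 0.100). Reads that did not map made up 21.2 to 35.0% of kept reads outside the miRNA class in high-ratio libraries and 26.6 to 53.3% in low-ratio libraries (exact p = 0.183). Among mapped reads outside the miRNA class, tRNA took 83.0 to 92.1% in high-ratio libraries and 62.3 to 88.0% in low-ratio libraries (exact p = 0.183). For piRNA the shares were 2.13 to 3.28% in high-ratio libraries and 1.78 to 2.92% in low-ratio libraries (exact p = 0.483), for mRNA 1.41 to 4.42% in high-ratio libraries and 2.04 to 7.77% in low-ratio libraries (exact p = 0.433), and for rRNA 0.0613 to 0.296% in high-ratio libraries and 0.136 to 0.568% in low-ratio libraries (exact p = 0.150).

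The split is nearly balanced over mTBI and naive, and entering it in the fit changed how many miRNAs passed between these groups. With it, 14 of 682 miRNAs (2.05%) were higher and 1 (0.147%) lower in mTBI than in naive by edgeR's test. Without it, 11 were higher and none lower, and 10 were called in both fits. The 5 with the smallest p were miR-1b, miR-9a-3p, miR-434-3p, miR-3571 and miR-1-3p. miR-9a-3p, a neuronal miRNA, was at 28.3, 38.6, 18.3, 28.0 and 27.1 CPM in mTBI 1 to 5, against 6.55, 8.25, 4.16 and 7.95 CPM in naive 1 to 4. Its log2 fold change was 2.07 (SE 0.25) with the split and 2.07 (SE 0.31) without it, so the estimate stayed and its error was smaller.

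miR-434-3p of the Dlk1-Dio3 cluster had a log2 fold change of 1.44 in mTBI over naive in both fits, with an SE of 0.18 with the split and 0.22 without it. miR-136-3p of the same cluster had 0.82 (SE 0.20, edgeR adjusted p = 0.0392) with the split and an adjusted p of 0.0722 without it. Between high-ratio and low-ratio libraries these miRNAs overlapped, with log2 fold changes of 0.53 (SE 0.22) for miR-9a-3p, −0.10 (SE 0.17) for miR-434-3p and 0.11 (SE 0.20) for miR-136-3p. miR-28-3p, which the study used to scale its PCR measurements, was at 739, 657, 725 and 551 CPM in high-ratio libraries, against 485, 562, 456, 603 and 516 CPM in low-ratio libraries (0.82, SE 0.15) and overlapped. miR-1b and miR-1-3p are near-identical muscle miRNAs, so reads could be shared between them. The 1 miRNA lower in mTBI was miR-215 (−0.78, SE 0.17, edgeR adjusted p = 0.0180), whose call was lost when mTBI 2, naive 1, naive 3 or naive 4 was left out.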

How the data were processed

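Small RNA libraries (QIAseq miRNA library kit, NextSeq 550) were made from rat plasma. The authors trimmed reads with cutadapt, identified UMIs, aligned the inserts with Bowtie to miRBase, other RNA classes and Rnor_6.0, and deposited read counts and UMI counts per feature, without normalization. When spike-ins were added is not given in the sources used here, so whether the ratio also reflects RNA extraction is unknown. In mTBI 1, mTBI 5 and naive 2 no miRNA had 1 to 9 UMIs.

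Libraries were grouped by title and divided at a ratio of 11. The members and the lists were chosen with earlier results of these data known. UMI counts were fitted with edgeR 4.0.16 in R 4.3.3 (filterByExpr with a minimum count of 10, TMM within each table, robust quasi-likelihood, Benjamini-Hochberg adjustment over the table, threshold 0.05), with the title group as covariate. DESeq2 1.42.0, RLE factors, total counts, no filter, read counts, a replicate block, all 19 libraries and leaving out each library were alternatives. Levels were given with a pseudocount of 1 CPM on log2 scales. Fits were tested on simulated data. Exact tests used Python 3.11.15. Sequences of 667 of the 748 miRNAs were matched by name to RefSeq.

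The named miRNAs are the 2 most abundant of each of 11 lists, the 6 largest changes in each direction among those with at least 100 CPM and no overlap, up to 5 with the smallest p in each direction of the slope, 6 of the study's or of hemolysis, and the 5 with the smallest p between mTBI and naive. Named tRNAs and piRNAs are up to 6 in each direction with the largest change past the threshold. Members of the printed seed families and let-7e-5p, miR-499-5p, miR-187-5p, miR-199a and miR-130a-3p were named after their values were seen. In the table of other RNAs, none of 54 features passed over the split (edgeR, 6 with an unadjusted p under 0.05). The slope also held miR-412-5p, miR-26a-5p and miR-30c-5p among its smallest p, none of which passed.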

Additional observations from a re-analysis of the deposited data

Results flagged for a closer look

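In a set of 4 or 5 libraries, 1 library was flagged where its gap to the next value exceeded Dixon's 95% limit. Chance flags about 1 in 20 such sets, and 8 of 148 sets were flagged. Among high-ratio libraries, naive 3 stood apart in 4 miRNAs. Its miR-192-5p was 11959 CPM against 9077 to 9303 in the other 3, its let-7c-5p 46360 CPM against 64535 to 67236, its let-7b-5p 30187 CPM against 41531 to 42503, and its miR-128-3p 4396 CPM against 2845 to 3080. miR-126a-3p was 27175 CPM in mTBI 2, against 17838 to 19382 in the other high-ratio libraries. miR-203a-3p was 5915 CPM in naive 1, against 535 to 1421 in the other high-ratio libraries. Among low-ratio libraries, mTBI 1 had 21.5 M (1e+06) total reads against 19.3 to 19.7 M, and mTBI 4 had 27.7 TMM-scaled CPM of Chr17.trna3849-SerAGA against 3.67 to 9.63.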

How the results depend on the processing

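The tRNA counts were 48 higher and 16 lower, and 10 and 1 with total counts. Leaving out each library gave 30 to 49 higher and 4 to 19 lower. The piRNA counts were 6 higher and 1 lower. They were 0 lower with RLE factors, 1 higher and 0 lower with total counts, 2 lower with DESeq2, 3 lower with all 19 libraries, 2 lower with counts under 10 set to 0 (chosen after seeing the data), and 6 to 7 higher and 0 to 1 lower with each library left out. The slope counts were 0 higher and 5 lower. Total counts gave 22 lower, read counts 2 lower, DESeq2 15 higher and 18 lower, and leaving out each library 0 to 9 higher (9 without sTBI 1) and 0 to 11 lower (11 without sTBI 5). Between mTBI and naive 14 were higher and 1 lower, 0 lower with read counts, without the split and with counts under 10 set to 0, 3 lower with DESeq2, and 10 to 13 higher and 0 to 2 lower with each library left out.

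For miRNAs over the split, total counts gave 35 over 2-fold higher and 158 lower, and leaving out each library 68 to 89 and 35 to 59. Without overlap, TMM-scaled CPM (chosen after seeing the data) gave 123 higher and 56 lower. In plain CPM, with 62 higher and 223 lower, leaving out each library gave 62 to 73 and 230 to 266. For a given miRNA, leaving out a library can only remove overlap, so these ranges do not test the counts. The rho over miRNAs with at least 100 CPM was 0.048 with mean CPM, −0.19 with length and −0.12 with GC. The piRNA share difference of 0.20 percentage points ranged from −0.0317 to 0.433 with each library left out, and was −0.0317 without naive 3. The causes were not tested.

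The labels give no pairing of rats by replicate number. Same-number correlations of miRNA deviations from the group mean ran from −0.48 to 0.21 between mTBI and naive. Between sTBI and sham they ran from −0.18 to 0.21. For mTBI and naive they cannot tell whether the numbers pair the rats. The split was left in these deviations, and numbers 1, 2 and 3 each join a high-ratio and a low-ratio library. With the replicate block, piRNA counts were 0 higher and 0 lower, slope counts 0 and 0, mTBI against naive 8 and 0, and tRNA 40 and 15. The lowest counts differ between libraries, which limits what can be said of sparse features.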
